A study of Mus musculus with 11 samples.

Results

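The heat shock proteins and chaperones described here are 10 genes, picked by symbol from a deposited expression table of 10992 genes. They are the stress-inducible HSP70 genes Hspa1a and Hspa1b, their constitutive relative Hspa8, the HSP90 genes Hsp90aa1 and Hsp90ab1, the HSP110 gene Hsph1, the J protein genes Dnajb1 and Dnaja1, and the mitochondrial chaperonin genes Hspd1 and Hspe1. All 10 were measured, and all 10 passed the filter on low values. The values are RPKM, read counts scaled to transcript length and to the library's mapped reads, from bulk RNA sequencing of regulatory T (Treg) cells. The cells were live, CD3+, CD4+ and Foxp3+, and were sorted from visceral adipose tissue (VAT) or spleen of male mice aged 25 weeks. Every mouse carried the Foxp3 YFP-cre allele, in which Foxp3 drives a Cre recombinase, so Cre was present in wild-type and deleted Treg cells alike. In the wild type (WT) both Srebf2 alleles were intact (Srebf2-wt/wt), and in the knockout (KO) both were flanked by loxP sites (Srebf2-flox/flox). The product of Srebf2, SREBP2, activates the genes of cholesterol synthesis when sterols are low. The libraries used were 3 each for VAT WT and VAT KO, and 2 each (replicates 2 and 3) for spleen WT and spleen KO. A further spleen KO library named in the labels, replicate 1, was not analysed here.

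Chaperones hold unfolded proteins and help them to fold, assemble or be degraded. The transcription factor HSF1 binds heat shock elements, which are repeats of GAA in alternating orientation, and induces many chaperone genes when unfolded proteins accumulate. HSP70 works in a cycle with J proteins, which deliver clients and stimulate its ATPase, and with HSP110, which exchanges its nucleotide, while HSP90 completes the folding of kinases and nuclear receptors and the chaperonin of Hspd1 and Hspe1 folds proteins inside mitochondria. Hspa1a and Hspa1b are classical markers of the heat shock response in lymphocytes, and they can also be induced while cells are isolated from tissue.

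Hspa1a and Hspa1b needed to be read as a pair. In GRCm38.p6, the build of the RefSeq annotation used here, Hspa1b lies at chr17:34956429-34959238 and Hspa1a at chr17:34969359-34972156, both on the minus strand and 10120 bases apart. Their coding sequences (1926 bases in Hspa1a and 1929 in Hspa1b) differed by 8 mismatches and 3 gap bases when aligned. Of all 50-base windows of the Hspa1b transcript, 62.3% also occurred in Hspa1a, so the split of reads between the copies is uncertain. The sources used here do not give how reads that match both copies were counted. The 150 bases before their start sites are shown because the pair had the largest tissue difference of the 10 genes. Capitals mark a pair of heat shock element units, GAANNTTC, whose first base is at position -104 from the start in both.
Hspa1a, chr17:34972157-34972306, minus strand: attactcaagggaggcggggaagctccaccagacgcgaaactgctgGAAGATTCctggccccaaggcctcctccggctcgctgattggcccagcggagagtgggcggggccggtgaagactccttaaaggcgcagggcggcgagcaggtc
Hspa1b, chr17:34959239-34959388, minus strand: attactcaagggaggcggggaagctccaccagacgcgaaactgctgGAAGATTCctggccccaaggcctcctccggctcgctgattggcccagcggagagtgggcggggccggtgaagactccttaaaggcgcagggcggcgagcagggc
The upstream sequences shown differed at 1 position (99.3% identity), so the copies shared this match.

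Pairs of units, GAANNTTC or TTCNNGAA, each of which reads the same on both strands, were also found near Hsph1, Dnaja1, Hspd1 and Hspe1. RefSeq promoter windows (250 bases before to 50 after a start) were at hand for 7 of the 10 genes, and 6 of the 7 held at least 1 such match in any window, against 17.0% of 27025 genes. By window, 7 of the members' 12 held one, against 15.06% of 32851 windows of all genes. Hspa1a and Hspa1b are near copies, and Hspd1 and Hspe1 share a run of units, so the members' matches are not independent. GAANNTTC alone was in 7.86% of those windows and TTCNNGAA in 8.52%. Runs of 3 units, in which overlapping GAANNTTC and TTCNNGAA matches share a unit, were in 0.603% of windows and in windows of Hsph1, Hspd1 and Hspe1. The stretches of Hspe1 and Hsph1 are shown because both genes were among those with a 2-fold excess in the library described next. Capitals mark the matched units upstream of the start used for the window. For Hsph1 that start is internal, and the stretch lies inside the annotated gene (chr5:149616843-149636498). The Hsph1 run of 3 units begins after that start, at position 37, and is not in the stretch shown.
Hspe1, chr1:55088053-55088082, plus strand, first capital at position -89: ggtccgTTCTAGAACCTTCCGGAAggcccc
Hsph1, chr5:149636351-149636380, minus strand, first capital at position -33: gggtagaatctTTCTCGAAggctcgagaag
Hspd1 and Hspe1 stand head to head on chromosome 1 (Hspd1 at 55077833-55088243, minus strand; Hspe1 at 55088148-55091317, plus strand). Their annotated spans shared 96 bases and their windows up to 285, so the run of units shown for Hspe1 also lies in a window of Hspd1. The windows of Dnajb1 held no match. These letters are a description of sequence and do not show binding.

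The libraries matched their labels. Srebf2 RPKM lay at 0.263 to 2.59 in the 5 KO libraries and at 10.5 to 30.5 in the 5 WT libraries. Cd3e (141 to 215 RPKM), Cd4 (116 to 149) and Foxp3 (13.3 to 16.4 in VAT, 6.97 to 8.87 in spleen) were present in every library. Read depth per library is unknown, because the table gives no counts. Labels do not say that replicates were separate mice, so p-values measure the spread between these libraries, which may be technical. In bulk RNA, a change in the share of cells that express a gene and a change in RNA per cell cannot be told apart.

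One library stood apart for the 10 genes. Spleen KO replicate 3 held the highest value of the 4 spleen libraries for 10 of 10, while it was the highest for 19.4% of the 10429 genes tested. It exceeded each other spleen library by at least 1 on the log2(RPKM + 1) scale, a 2-fold difference, for 9 of the 10. Only 27 of the 10429 genes, or 0.259%, did so. The 4 members with the largest excess over the next spleen library were Hspa1b (3.67), Hspa1a (3.04), Hsph1 (2.34) and Dnajb1 (1.85). Hspa8 had the smallest excess, 0.90, and was the member outside the 27. Of the 27, 8 other genes were chaperone partners from the wider lists: the cochaperone genes Stip1, Bag3, Ahsa1, Ahsa2, Chordc1 and Fkbp4, and the J protein genes Dnaja4 and Dnajb4. These names were chosen after their values were seen. Results for the 10 genes that rest on spleen KO are therefore given with and without this library, a choice made after seeing the data, as are the counts of the wider lists. Over all genes, spleen WT replicate 2 departed further from the other spleen libraries, being the highest for 37.7% of genes. It was at least 2-fold above each of them for 115 genes and below each for 293, against 27 and 28 for spleen KO replicate 3. Every spleen WT mean rests on that library and on replicate 3.

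**Figure D1:**
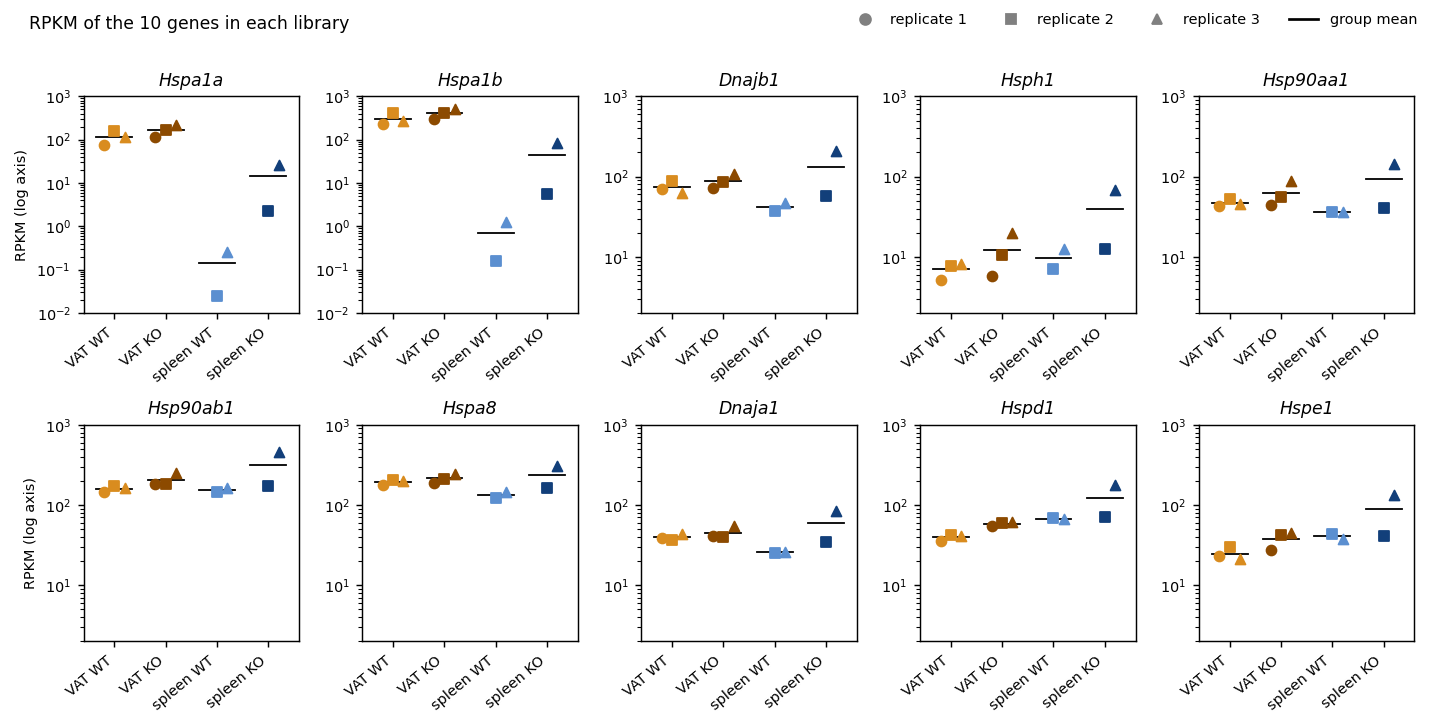
RPKM of each of the 10 genes (log axis) in the 10 libraries; each point is 1 library, coloured by tissue and genotype, its shape gives the replicate number, and bars are group means. Spleen KO replicate 3 is the highest spleen library in all 10 panels, and in the panels of Hspa1a and Hspa1b the VAT libraries lie above every spleen library.

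Hspa1a and Hspa1b, the inducible HSP70 genes, were among the most abundant transcripts of VAT Treg cells and close to 0 in WT spleen Treg cells. Hspa1a RPKM was 77.1, 157 and 115 in VAT WT, 114, 171 and 220 in VAT KO, 0.025 and 0.259 in spleen WT, and 2.29 and 26.0 in spleen KO. Hspa1b RPKM was 230, 423 and 268 in VAT WT, 303, 424 and 516 in VAT KO, 0.156 and 1.23 in spleen WT, and 5.57 and 82.3 in spleen KO. For both genes every VAT library was above every spleen library, and the spleen KO libraries were above the spleen WT libraries. Ranked by group mean among 10992 genes, Hspa1b was at position 57 in VAT WT and 26 in VAT KO, against 10244 in spleen WT and 893 in spleen KO. Hspa1a was at 233 and 128 in VAT, and at 10916 and 3287 in spleen.

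The tissue difference of the pair was tested with limma on log2(RPKM + 1) across 10429 genes, with Benjamini-Hochberg adjustment and adjusted p below 0.05 as the threshold. In WT, Hspa1a was higher in VAT by 6.63 ± 0.63 (SE, adjusted p = 8.9e-06) and Hspa1b by 7.54 ± 0.74 (adjusted p = 1.2e-05). They were the 2 members of 10 called in WT, both higher; of all genes tested, 10.7% were called higher and 15.4% lower. In KO the differences were 4.11 ± 0.63 for Hspa1a (adjusted p = 7.2e-04) and 4.12 ± 0.74 for Hspa1b (adjusted p = 0.00233). With spleen KO replicate 3 left out, the KO differences were 5.63 ± 0.39 and 5.95 ± 0.40, so 1 library set part of their size. Over both genotypes the pair differed by 5.37 ± 0.44 and 5.83 ± 0.52 (adjusted p = 1.5e-06 and 2.9e-06), and by 6.13 and 6.74 without that library. All these calls on the pair held in each setting tried. Since the spleen WT values lie near or below the added 1, differences on this scale understate the ratio of the levels.

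The copies kept a similar ratio across VAT. The ratio of Hspa1a to Hspa1b RPKM was 0.335 to 0.427 in the VAT libraries. It was 0.160 and 0.210 in spleen WT, where both values are too low for a ratio to be read, and 0.412 and 0.316 in spleen KO replicates 2 and 3. Summed over both copies, RPKM was 307.5 to 735.6 in VAT, 0.181 and 1.49 in spleen WT, and 7.86 and 108 in spleen KO. This sum depends little on how reads were split, the transcripts being 2967 and 2803 bases long. It does depend on whether reads that match both copies were kept, dropped or counted for each, which is not given. The pair made up 36.4% to 47.9% of the summed RPKM of the 10 genes in each VAT library and at most 6.45% in a spleen library. The sum of the other 8 genes lay between 538 and 873 RPKM in VAT libraries and between 484 and 593 in 3 spleen libraries, ranges that overlap. In spleen KO replicate 3 it was 1572.

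Genes induced by cell isolation and activation moved with the tissue as well. Of 18 immediate early and dissociation genes in a list fixed with earlier results known, 17 were higher in VAT and 1 lower over both genotypes (median difference 3.52), and without spleen KO replicate 3 the counts were 15 and 1. All genes tested had a median of -0.10. Dusp1, a MAP kinase phosphatase, differed by 4.47 ± 0.10 and Atf3, a stress-induced transcription factor, by 6.59 ± 0.18 (adjusted p = 7.9e-12 and 5.3e-11). The summed RPKM of the 18 was 6479 to 8627 in VAT libraries and 796.2 to 962 in spleen libraries, so the tissues did not overlap. Spleen KO replicate 3 had 847.9, inside the range of the other spleen libraries, and exceeded each of them by 2-fold for 0 of the 18 genes. The dissociation of the tissues is not described in the sources used here, and its part in the Hspa1a and Hspa1b difference was not tested. Some markers of other cells also differed by tissue. Of 12 listed myeloid markers 4 were in the table, with a summed RPKM between 12.3 and 45.6 in VAT libraries and between 179.4 and 240.5 in spleen libraries. That sum was mostly Ctss, while in spleen Adgre1 reached at most 1.45 RPKM and Fcer1g 2.86. For B cell markers the sum lay between 51.2 and 188.1 in VAT and between 97.4 and 127.8 in spleen, and 0 of 8 neutrophil markers were in the table. Of 8 listed markers of lymphocytes outside the CD4 lineage, 3 were measured (Cd8a, Cd8b1 and Nkg7). Their summed RPKM lay between 74.7 and 190.6 in VAT and between 35.02 and 61.4 in spleen, without overlap. Most of that sum in VAT was Nkg7, a cytotoxic granule gene, which was higher there like Hspa1a and Hspa1b (2.01 ± 0.26, adjusted p = 8.0e-05). Differences ran the other way for Cd8b1 (-0.62 ± 0.27, adjusted p = 0.0895) and Cd8a (-0.16 ± 0.28, adjusted p = 0.699), and neither was called. Cd8a was at 0.034 to 1.33 RPKM in VAT. The part of these cells was not tested.

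Hspa8, the constitutive HSP70 that also strips clathrin from vesicles, was high in every library and varied less. Its RPKM was 175, 205 and 198 in VAT WT, 187, 211 and 244 in VAT KO, 121 and 145 in spleen WT, and 163 and 304 in spleen KO. Both spleen WT libraries were below all VAT libraries, and spleen KO replicate 3 was above them all. Over both genotypes the VAT minus spleen difference was 0.23 ± 0.16 (95% interval -0.10 to 0.57, adjusted p = 0.267). With spleen KO replicate 3 left out it was 0.46 ± 0.13. In KO alone its direction depended on which spleen KO library was kept. The difference there was 0.38 without replicate 3 and negative without replicate 2.

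The J protein genes followed a similar order at lower levels. Dnajb1, the J protein partner of inducible HSP70, had RPKM of 70.8, 88.0 and 62.9 in VAT WT, 72.7, 86.6 and 109 in VAT KO, 36.8 and 47.1 in spleen WT, and 57.0 and 208 in spleen KO. Dnaja1, a farnesylated cytosolic J protein, had 38.5, 36.6 and 43.4 in VAT WT, 41.0, 40.2 and 54.3 in VAT KO, 25.5 and 26.1 in spleen WT, and 35.01 and 85.0 in spleen KO. For both, the 3 spleen libraries other than spleen KO replicate 3 lay below every VAT library, and that library lay above every VAT library. Neither was called over both genotypes, at 0.25 ± 0.28 for Dnajb1 (95% interval -0.35 to 0.84, adjusted p = 0.518) and 0.15 ± 0.20 for Dnaja1 (95% interval -0.27 to 0.58, adjusted p = 0.58). Without that library both were called higher in VAT, Dnajb1 by 0.71 ± 0.17 (adjusted p = 0.00859) and Dnaja1 by 0.47 ± 0.14 (adjusted p = 0.0263). Without spleen KO replicate 2 instead, the differences were -0.21 and -0.16, so their direction over both genotypes depended on which spleen KO library was kept.

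Hsph1, the HSP110 nucleotide exchange factor, was the least abundant member in VAT and did not follow Hspa1a and Hspa1b across tissues. Its RPKM was 5.15, 7.60 and 8.24 in VAT WT, 5.80, 10.6 and 19.6 in VAT KO, 7.10 and 12.5 in spleen WT, and 12.4 and 67.3 in spleen KO. The VAT and spleen ranges overlapped with every library included. Its VAT minus spleen difference was -0.89 ± 0.40 over both genotypes (95% interval -1.76 to -0.01, adjusted p = 0.107). It was -0.30 ± 0.32 without spleen KO replicate 3, and more negative than with all libraries without spleen KO replicate 2.

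With all libraries included, neither HSP90 gene passed the threshold between tissues. Hsp90aa1, the inducible form, had RPKM of 43.3, 52.1 and 46.0 in VAT WT, 44.9, 55.2 and 87.7 in VAT KO, 36.0 and 36.3 in spleen WT, and 40.9 and 143 in spleen KO. Hsp90ab1, the constitutive form, had 146, 170 and 163 in VAT WT, 181, 184 and 253 in VAT KO, 145 and 161 in spleen WT, and 174 and 454 in spleen KO. Spleen KO replicate 3 was the highest of the 10 libraries for both, and VAT KO replicate 3 the next highest. Over both genotypes Hsp90aa1 differed by 0.01 ± 0.28 (95% interval -0.59 to 0.62, adjusted p = 0.978). Hsp90ab1 differed by -0.20 ± 0.21 (95% interval -0.66 to 0.26, adjusted p = 0.497). Without spleen KO replicate 3 the differences were 0.46 ± 0.19 and 0.15 ± 0.13, so the sign for Hsp90ab1 turned. Without spleen KO replicate 2 instead, both genes were lower in VAT, so their direction depended on which spleen KO library was kept.

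The mitochondrial chaperonin genes ran the other way, lower in VAT. Hspd1, which encodes HSP60, had RPKM of 35.8, 42.4 and 41.3 in VAT WT, 54.1, 60.2 and 61.3 in VAT KO, 69.5 and 66.3 in spleen WT, and 69.9 and 176 in spleen KO. Hspe1, its lid HSP10, had 23.0, 30.2 and 21.0 in VAT WT, 27.1, 42.6 and 44.2 in VAT KO, 43.9 and 37.5 in spleen WT, and 41.3 and 135 in spleen KO. Every VAT library was below every spleen library for Hspd1, while 2 VAT KO libraries reached the spleen range for Hspe1. Over both genotypes Hspd1 was lower in VAT by 0.84 (difference -0.84 ± 0.20, adjusted p = 0.00544) and Hspe1 by 0.85 (difference -0.85 ± 0.27, adjusted p = 0.0255). Without spleen KO replicate 3 the Hspd1 difference was smaller by more than 1.5 times but still called (-0.51 ± 0.12, adjusted p = 0.00822), and the Hspe1 difference was not (-0.43 ± 0.18, adjusted p = 0.109). In KO alone Hspd1 was also called (-0.91 ± 0.28, adjusted p = 0.0434), a call lost without that library (-0.25 ± 0.18, adjusted p = 0.491). Because the genes overlap and the library kit does not mark strand, reads from the shared stretch cannot be assigned to one gene.

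Counted over the 10 genes, 2 were called higher and 2 lower in VAT over both genotypes, with 13.9% of all genes called higher and 21.5% lower. In KO, 2 were higher (7.65% of all genes) and 1 lower (6.94%). Once spleen KO replicate 3 was left out, 5 members were higher and 1 lower over both genotypes (11.8% and 15.7% of all genes). In WT 5 were then higher and 2 lower (10.1% and 14.2%), and in KO 2 were higher and 0 lower (4.50% and 2.70%). Those 7 WT differences are the same values as with all libraries, since the spleen KO samples enter that test only through the shared estimate of spread. With all libraries, the VAT and spleen values did not overlap for Hspa1a and Hspa1b, which were higher (10.4% of all genes), and for Hspd1, which was lower (15.4%). Without that library, Hspa8, Hsp90aa1, Dnajb1 and Dnaja1 joined the higher group (11.6% of all genes), and Hspd1 remained the 1 lower member (18.2%).

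**Figure D2:**
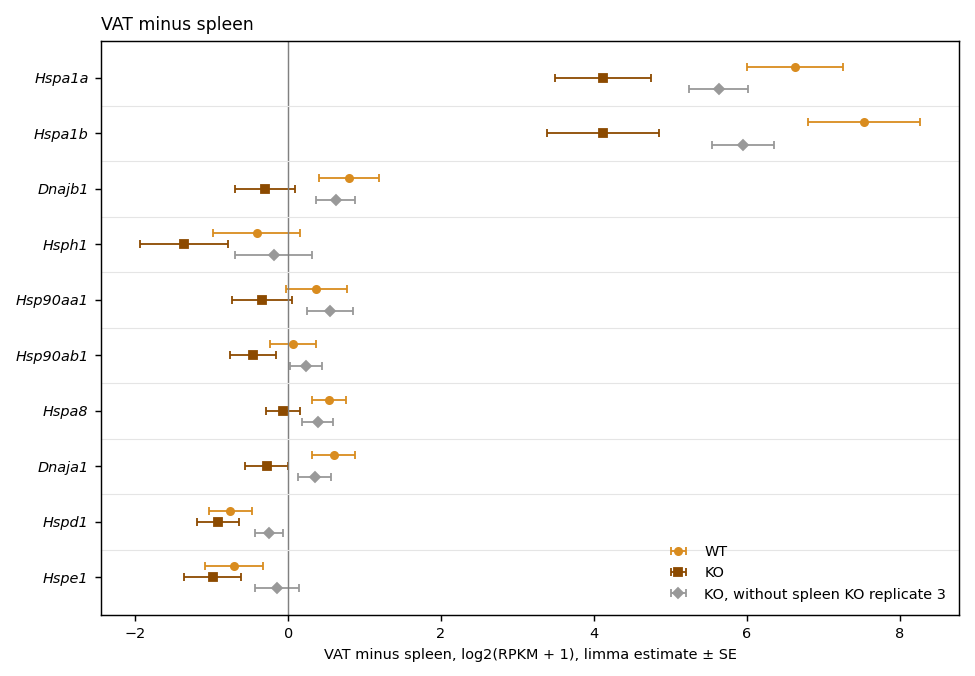
Difference between VAT and spleen in log2(RPKM + 1) for the 10 genes, in WT, in KO, and in KO without spleen KO replicate 3; points are limma estimates and bars are ± 1 SE. Hspa1a and Hspa1b lie above 4 in all 3 estimates, and for 5 genes (Hspa8, Hsp90aa1, Hsp90ab1, Dnajb1 and Dnaja1) the KO estimate is below 0 with that library and above 0 without it.

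Srebf2 deletion in VAT Treg cells was not followed by a called change in any of the 10 genes. In VAT, limma called 0 members, while 0.422% of all genes were called and 767 genes had an unadjusted p below 0.05. The 10 differences (KO minus WT) were all above 0, with a median of 0.40, and all genes tested had a median of 0.02. Without VAT KO replicate 3 the median of the 10 was 0.18. The 44 genes called in the whole fit became 2 when that library or VAT WT replicate 1 was left out, 5 when VAT KO replicate 2 was, and 19 when either spleen KO library was. No member was among them in any of these. Since the 10 genes share these 6 libraries, a common sign is not repeated evidence. Hspd1 had the smallest unadjusted p, with a difference of 0.54 ± 0.25 (95% interval 0.01 to 1.08, adjusted p = 0.671). For Hspa1a it was 0.54 ± 0.56 (95% interval -0.68 to 1.75) and for Hspa1b 0.45 ± 0.66 (95% interval -0.98 to 1.87), adjusted p = 0.973 and 0.993.

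Within VAT, 1 library was high for every member. VAT KO replicate 3 had the highest value of the 6 VAT libraries for 10 of 10 members, against 22.0% of all genes. For Hsp90ab1 and Hspd1 all 3 KO libraries were above all 3 WT libraries, a pattern seen in 8.97% of all genes. In the other 8 the genotypes overlapped in VAT. Of 12 myeloid markers listed, 3 were tested, and 1 was called between genotypes in VAT. Ctss, a myeloid protease gene, was higher in VAT KO (1.31 ± 0.25, adjusted p = 0.0449). The others did not follow it, with Adgre1 at 0.01 ± 0.24 and Fcer1g at 0.13 ± 0.44 (adjusted p = 0.9995 for each). The 4 measured markers, mostly Ctss, summed to 13.98, 15.2 and 12.3 RPKM in VAT WT and to 20.2, 45.6 and 45.4 in VAT KO. This sum did not overlap between genotypes. The part of Ctss or of myeloid cells in the values of the 10 genes was not tested.

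**Figure D3:**
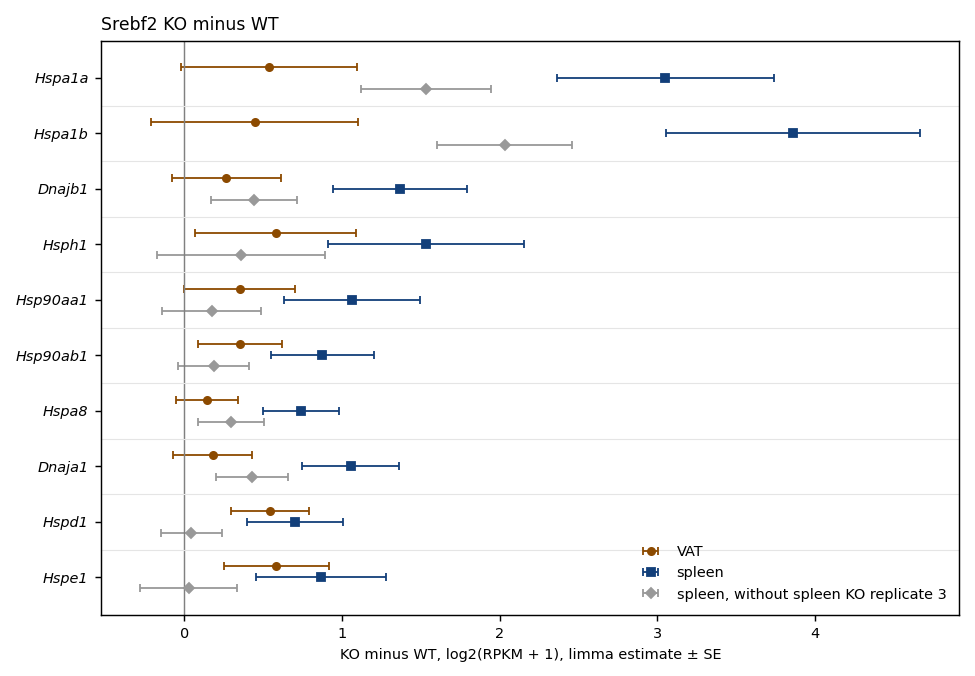
Difference between KO and WT in log2(RPKM + 1) for the 10 genes in VAT and in spleen, the latter also without spleen KO replicate 3; points are limma estimates and bars are ± 1 SE. All estimates are above 0, none passed the adjusted threshold, and the spleen estimates of all 10 genes are smaller without that library.

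In spleen the KO minus WT differences were larger, and their size depended on 1 library. With both spleen KO libraries, limma called 0 of the 10 genes, and it called 0 of all genes (0%), with 873 at an unadjusted p below 0.05. Hspa1b differed by 3.87 ± 0.81 (95% interval 2.12 to 5.62, adjusted p = 0.306) and Hspa1a by 3.05 ± 0.69 (95% interval 1.56 to 4.55, adjusted p = 0.36). The median over the 10 genes was 1.06, and over all genes -0.03. Both spleen KO libraries were above both spleen WT libraries for 8 of the 10, all but Hsph1 and Hspe1, a pattern found in 15.0% of all genes. Without spleen KO replicate 3 the median was 0.33, with 2.03 ± 0.43 for Hspa1b, 1.53 ± 0.41 for Hspa1a, 0.04 ± 0.19 for Hspd1 and 0.03 ± 0.31 for Hspe1. All 10 differences were still above 0, and again 0 were called. That leaves 1 spleen KO library, which the fit assumes to vary like the other groups.

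Leaving out a different spleen library changed these counts. Without spleen KO replicate 2, so that replicate 3 alone stood for spleen KO, 7 members were called higher in KO against 0.115% of all genes. The tissue comparison in KO then had 2 members higher and 7 lower (4.68% and 2.85% of all genes). Without spleen WT replicate 3, Hspa1a and Hspa1b were called in spleen, along with 13.4% of all genes tested. Whether the KO minus WT difference itself differed between tissues was tested as an interaction, and limma called 0 of the 10 genes and 0 of all genes, with 738 at an unadjusted p below 0.05. The interaction was -3.42 ± 1.04 for Hspa1b (adjusted p = 0.598) and -2.52 ± 0.89 for Hspa1a (adjusted p = 0.632), and -1.59 ± 0.52 and -1.0 ± 0.50 without spleen KO replicate 3.

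The wider chaperone lists, also chosen with earlier results known, did not follow Hspa1a and Hspa1b across tissues. Of 8 subunits of TRiC, the cytosolic chaperonin that folds actin and tubulin, 0 were higher and 7 lower in VAT over both genotypes (median -0.58), among them Cct5 at -0.84 ± 0.12 and Cct8 at -0.57 ± 0.10 (adjusted p = 2.0e-04 and 0.00103). Leaving out spleen KO replicate 3, 5 were lower (median -0.45). Of 8 prefoldin genes, which hand clients to TRiC, 4 were lower and 0 higher, led by Pfdn6 (-0.75 ± 0.13, adjusted p = 8.2e-04) and Pdrg1 (-0.67 ± 0.12, adjusted p = 9.5e-04). Among 12 other mitochondrial chaperones and proteases 5 were lower and 0 higher, led by the protease subunit gene Clpp (-0.94 ± 0.17, adjusted p = 9.7e-04) and the mitochondrial HSP70 exchange factor gene Grpel1 (-0.63 ± 0.14, adjusted p = 0.00391). Without that library 2 prefoldin genes and 3 of these mitochondrial genes were lower. The called genes of these 3 lists had the same direction as Hspd1 and Hspe1, beside 21.5% of all genes called lower.

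Partners of HSP70 and HSP90 were mixed. Over both genotypes 13.9% of all genes were called higher and 21.5% lower. For the other J proteins and the ER chaperones below, the share called lower was near that of all genes. Of 21 cochaperones 1 was higher and 8 were lower over both genotypes (2 and 4 without spleen KO replicate 3). The higher one was Fkbp5, an HSP90 immunophilin induced by glucocorticoids (1.05 ± 0.15, adjusted p = 2.1e-04), and Ppid, another HSP90 immunophilin, was lower (-0.58 ± 0.11, adjusted p = 0.00161). Of 27 other J proteins 1 was higher and 5 were lower (1 and 4 without that library), led by Dnajc7 (-0.65 ± 0.11, adjusted p = 5.9e-04) and the mitochondrial Dnaja3 (-0.65 ± 0.12, adjusted p = 9.5e-04). Of 5 other HSP70 genes that passed the filter, Hspa2 was higher (2.51 ± 0.24, adjusted p = 5.5e-06) and Hspa14, a ribosome-associated HSP70, was lower (-0.54 ± 0.14, adjusted p = 0.0107). Among 17 chaperones of the endoplasmic reticulum (ER) 1 was higher, the J protein gene Dnajb9 (0.79 ± 0.20, adjusted p = 0.00911), and 4 were lower, led by Dnajc3 (-0.73 ± 0.11, adjusted p = 3.0e-04). Leaving out spleen KO replicate 3, 1 ER chaperone was higher and 1 lower. Of 2 genes tested from the list headed small heat shock proteins, Hspb11 was lower (-1.05 ± 0.24, adjusted p = 0.00482). Its highest value was 5.68 RPKM in spleen WT replicate 2, with 1.75 to 2.56 in the other spleen libraries. Hspb6 was at 0.07 ± 0.18 (adjusted p = 0.781). Of 3 genes for HSF factors and their feedback, Hsbp1, which binds HSF1, was lower (-0.56 ± 0.15, adjusted p = 0.00959), and Hsf1 itself was at -0.22 ± 0.14 (adjusted p = 0.239). The 18 genes named here from these lists were the 2 of each list with the smallest p in this comparison. That 16 of them were called follows largely from this choice. Without spleen KO replicate 3, 17 of the 18 kept their direction. KO against WT, 0 genes of any of these lists were called in VAT or in spleen.

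The wider lists were also read in spleen KO replicate 3. That library was above each other spleen library for 8 of 8 TRiC genes (median excess 0.39, none 2-fold) and for 12 of 21 cochaperones, 6 of them 2-fold. The summed RPKM of the 21 cochaperones was 1053 there and 561.9 to 604.1 in the other spleen libraries. It was above the others for 3 of 17 ER chaperones, 2 of 12 other mitochondrial genes and 0 of 3 HSF genes, and the median excess over all genes was -0.28. Of the other lists, it was above the others for 7 of 18 immediate early genes, 3 of 6 B cell markers, 1 of 3 lymphocyte markers outside the CD4 lineage, 0 of 6 Treg identity genes and 0 of 3 myeloid markers. The cause of its high values was not tested.

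**Figure D4:**
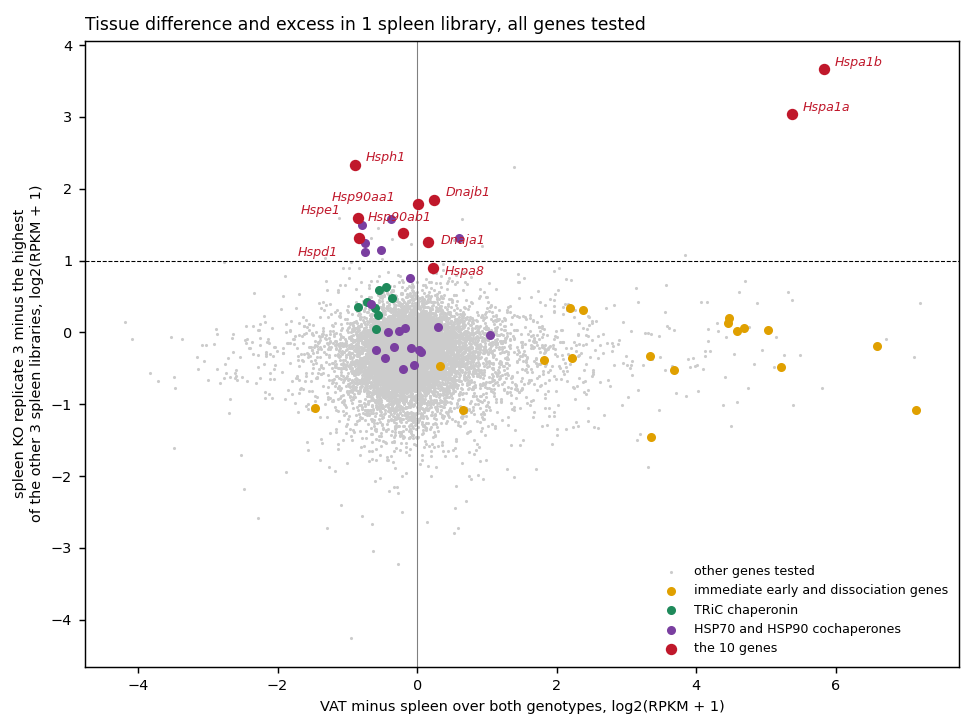
Each point is 1 of the 10429 genes tested, with the VAT minus spleen difference on the x axis and the excess of spleen KO replicate 3 over the highest other spleen library on the y axis, both in log2(RPKM + 1); the dashed line marks a 2-fold excess. The axes share that library; 9 of the 10 genes lie above the line, Hspa1a and Hspa1b alone of them far to the right, and the 18 immediate early and dissociation genes all lie below it.

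The genes outside the set whose pattern over the 10 libraries was most like the mean pattern of Hspa1a, Hspa1b, Dnajb1 and Hsph1 were Mir1894, Tnfsf9, Csf1, Rnf128 and Ifng. Likeness was the root mean square difference of centred log2(RPKM + 1) values, 0.74 for Mir1894, 0.82 for Tnfsf9, 0.83 for Csf1, 0.84 for Rnf128 and 0.86 for Ifng. The mean pattern itself had a root mean square of 1.66, and the 4 members it averages were farther from it than these 5 genes, at 1.36 for Hspa1a, 1.64 for Hspa1b, 1.25 for Dnajb1 and 1.76 for Hsph1. The mean therefore describes none of the 4 closely. Tnfsf9, which encodes the ligand of 4-1BB, had 13.6 to 24.8 RPKM in VAT, 3.37 to 4.86 in 3 spleen libraries and 27.9 in spleen KO replicate 3, and is the 1 gene of these 5 that is also among the 27. Csf1, the macrophage growth factor, had 37.0 to 50.5 in VAT and 2.88 to 13.6 in spleen.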

How the data were processed

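RPKM values, deposited by the authors in 1 table for VAT and spleen libraries, came from RNA of sorted cells (Quick-RNA MicroPrep, SMART-seq v4, Nextera XT, per the labels' protocols). STAR and the mm10 build are named, per the submitters' processing notes; the sources used here give neither a version nor how genes were counted. Depth is unknown. Of 11 labelled samples 10 had a column, spleen KO replicate 1 having none; 1 further column, named as a spleen WT replicate 1, matched no label and was not used; the design had assumed all 11. Genes with RPKM of at least 1 in at least 2 libraries (10429 of 10992) were tested with limma 3.58.1 in R 4.3.3 on log2(RPKM + 1), computed from those values, as 4 group means with a mean-variance trend, two-sided, with Benjamini-Hochberg adjustment over all genes. The fit was tested on simulated data. Sequences were RefSeq promoter windows (GRCm38.p6); coding sequences (GENCODE vM21) were aligned with Biopython 1.88. Windows of 3 members (Hspa8, Hsp90aa1, Hsp90ab1) were not in that table. Named genes were the 10 members, the 2 genes of each wider list with the smallest p between tissues over both genotypes, and the 5 genes most like the mean pattern of 4 members. Partners that exceeded 2-fold in spleen KO replicate 3, and Ctss, Adgre1, Fcer1g, Nkg7, Cd8a and Cd8b1 as markers, were named after their values were seen. The members, lists and tests were chosen with earlier results of these data known. Alternatives were other pseudocounts, filters, scalings, spread estimates and weights, a replicate block, and leaving out each library.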

Additional observations from a re-analysis of the deposited data

How the results depend on the processing

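For the 10 genes, 1180 differences were recomputed under other settings: 1105 kept their direction and their side of the threshold, 18 lost the call, 35 gained one and 22 changed sign. Calls on Hspa1a and Hspa1b between tissues were kept in each. The number of members called in KO against WT in VAT was 0 in every setting. Between tissues in WT it was 4 in place of 2 when only the groups compared entered the fit (16.85% of all genes in place of 26.11%).

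Leaving out 1 library at a time gave 0 to 7 members called for KO against WT in spleen, 2 to 7 between tissues in WT, 2 to 9 in KO, 3 to 6 over both genotypes, and 0 to 2 for the interaction. The highest counts came without spleen KO replicate 2, and in WT and over both genotypes also without replicate 3. Those fits hold 1 spleen KO library, so the spread of that group is not measured in them. Leaving out 1 VAT library at a time keeps at least 2 libraries in every group. KO against WT in spleen and the interaction then had 0 members called and 0% of all genes. Between tissues, 2 members were called in WT (18.3% to 24.7% of all genes) and 2 in KO (9.72% to 13.75%). Over both genotypes 3 or 4 were called (29.8% to 32.7%). The Hspd1 call in KO was lost in 11 settings and the Hspe1 call over both genotypes in 7.

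Signs turned for differences that were not called with all libraries. Between tissues in WT, Hsp90ab1 was at -0.069 after quantile normalization. In KO, Hspa8 was at 0.024 after scaling by median ratios. Over both genotypes, Hsp90aa1 was at -0.014 with array weights. Leaving out 1 library at a time, the tissue difference in WT ranged from -0.014 to 0.139 for Hsp90ab1. In KO it ranged from -0.52 to 0.38 for Hspa8, -1.24 to 0.55 for Hsp90aa1, -1.15 to 0.23 for Hsp90ab1, -1.23 to 0.62 for Dnajb1 and -0.91 to 0.35 for Dnaja1. Over both genotypes it ranged from -0.43 to 0.46 for Hsp90aa1, -0.54 to 0.15 for Hsp90ab1, -0.21 to 0.71 for Dnajb1 and -0.16 to 0.47 for Dnaja1. The interaction ranged from -1.61 to 0.18 for Hsp90aa1, -1.22 to 0.17 for Hsp90ab1, -2.13 to 0.22 for Hsph1, -0.82 to 0.50 for Hspd1 and -1.12 to 0.56 for Hspe1. The end points came without spleen KO replicate 2 or 3, except for Hsp90ab1 in WT, where they came without spleen WT replicate 2 or 3.

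Over all genes, correlations of same-numbered deviations from the group means ranged from -0.147 to 0.184. Such correlations cannot show whether same-numbered libraries share a mouse or a processing day, so pairing is unknown. Among the 10 genes, VAT KO replicate 3 and spleen KO replicate 3 were each the highest of their tissue for 10 of 10. With the replicate block, 2 members were called between tissues in KO in place of 3 (10.5% of all genes in place of 14.6%). Hspa8 was there at 0.014 in place of -0.066. Depth was not available, so counting error near 0 could not be given for Hspa1a and Hspa1b in spleen WT.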
